A study of Mus musculus with 18 samples.

Results

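The Hox genes of the mouse, those named Hoxa, Hoxb, Hoxc or Hoxd with a number, were followed in ribosome-associated mRNA of adult spinal cord. They were chosen by name alone, which gave 38 of the 38924 genes in the gene tables: 11 of the HoxA cluster, 10 of HoxB, 9 of HoxC and 8 of HoxD. All mice were 8 weeks old, on the background labelled B6;CASTxB6.129, and carried 1 copy of the RiboTag allele (Rpl+/-), which yields a haemagglutinin-tagged Rpl22 where Cre recombinase is active. Cre mice (Chat+/-) had Cre in cells that express Chat, the gene for the acetylcholine-making enzyme. They either carried the P278KY allele of Gars, the glycyl-tRNA synthetase gene (P278KY+/-; Cre P278KY, n = 3), or did not (P278KY+/+; Cre WT, n = 4). Mice without Cre (Chat+/+) were the negative controls, with the allele (NoCre P278KY, n = 6) or without it (NoCre WT, n = 5). Each library came from an immunoprecipitation with an antibody to the tag, so NoCre libraries hold spinal cord RNA that bound without tagged ribosomes.

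Hox genes encode homeodomain transcription factors and lie in a row in each cluster. Low-numbered genes are switched on early and reach far forward in the embryo, and high-numbered ones later and further back, so the set a spinal neuron expresses reflects its position along the cord. In motor neurons they set columns and muscle-specific pools, together with the cofactors Pbx and Meis and with Foxp1. The name of a gene gives its cluster and its paralogue number, and genes with the same number in different clusters are the most alike.

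Libraries held 14659488 to 24028649 counts in the Cre groups and 8177758 to 14450144 in the NoCre groups, of which 4955 to 11563 and 2478 to 6732 fell on Hox genes. The mitochondrial ribosomal RNAs took 1.36% to 4.88% of counts in Cre and 24.2% to 53.8% in NoCre libraries. Of 12 cholinergic markers, 12 were called higher in Cre than in NoCre libraries in both genotypes, with median log2 differences of 4.34 in WT and 5.04 in P278KY mice. The labelled cell type therefore has its markers. A background of other cells remained: the 12 oligodendrocyte markers summed to 730 to 4344 CPM (counts scaled to a common library size) in Cre against 8464 to 13576 in NoCre libraries. Its part in the Hox values was not tested. In bulk libraries fewer cells of a type and less RNA per cell cannot be told apart. The library NoCre P278KY replicate 6 stood above the others of its group in scaled CPM for 8 Hox genes. The counts of calls that rest on it are therefore also given without it.

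Hoxc8 had the highest mean level of the Hox genes in Cre WT, and also in each other group. It was the highest in Cre WT replicates 1 and 4, and Hoxc10 was in replicates 2 and 3. Levels of different genes are compared as CPM per kilobase of the effective transcript length that the authors deposited. Hoxc8, which marks brachial and thoracic cord, stood at 40.8, 21.7, 26.9 and 44.9 in Cre WT and at 51.4, 32.6 and 25.1 in Cre P278KY. Hoxa7, a gene of thoracic levels, followed with 31.3, 24.5, 27.2 and 35.6 in Cre WT and 27.5, 28.0 and 21.9 in Cre P278KY. For both genes the Cre groups overlapped. In NoCre libraries the mean of Hoxc8 was 22.7 in WT and 30.3 in P278KY mice. Hoxc8 was not called between Cre WT and NoCre WT (log2 0.56, edgeR adjusted p 0.0874).

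Hoxc10, which helps to specify lumbar motor neurons, stood at 33.7, 29.1, 27.9 and 23.1 CPM per kilobase in Cre WT and at 23.1, 22.3 and 31.4 in Cre P278KY. Hoxb5, a cervical and brachial gene, had 16.4, 18.0, 11.6 and 15.3 in Cre WT and 13.4, 13.2 and 12.8 in Cre P278KY. These 4 genes made up 48.5% of the summed Hox level in Cre WT and 46.2% in Cre P278KY, against 34.2% for the 4 highest genes in NoCre WT. In NoCre WT the mean was 19.5 for Hoxc10 and 12.8 for Hoxb5. Hoxb5 was not called between Cre WT and NoCre WT (log2 0.27, edgeR adjusted p 0.285).

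In Cre WT 8 Hox genes had a mean of at least 10 CPM per kilobase, 16 lay between 1 and 10 and 14 lay below 1. The order was a graded one. Among the 37 pairs of neighbours in it, the libraries overlapped for 36, and the exception was the step from Hoxc10 to Hoxb5. After these came Hoxa9 (14.5 ± 8.39 SD), Hoxd9 (11.4 ± 4.66), Hoxb7 (10.3 ± 2.01) and Hoxd8 (10.2 ± 1.26), all as means of CPM per kilobase over n = 4. Some genes at the ends of clusters had next to no reads. Hoxb1, a hindbrain gene, had 0 reads in the 4 Cre WT and the 3 Cre P278KY libraries, and the former allow a level of up to 0.0396 CPM, counting error only. Hoxd12 and Hoxd13, which pattern the limb tips and the tail end of the body, had 1 and 3 reads in Cre WT.

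**Figure D1:**
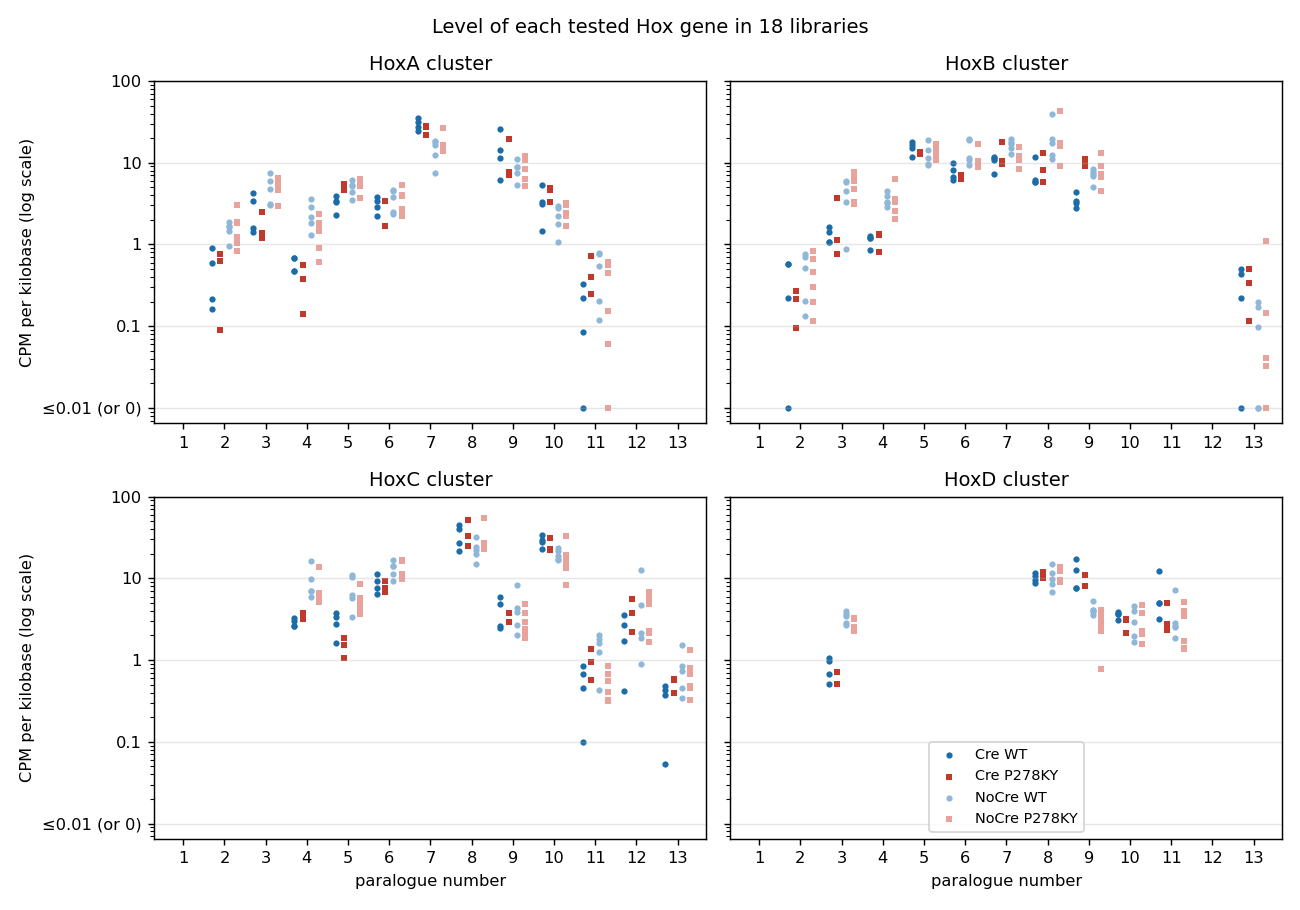
Each panel is 1 Hox cluster, with the paralogue number on the x axis and CPM per kilobase of effective length on a log y axis; every point is a library, coloured by group, for the 32 genes that passed the filter on low counts, and values at or under 0.01, including 0, sit on the lowest line. The highest Cre WT means of the clusters are those of Hoxa7 (29.6), Hoxb5 (15.3), Hoxc8 (33.6) and Hoxd9 (11.4).

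The summed Hox level was about the same in all groups: 221 ± 25.7 (SD, n = 4) CPM per kilobase in Cre WT, 218 ± 16.7 (n = 3) in Cre P278KY, 230 ± 21.6 (n = 5) in NoCre WT and 224 ± 49.4 (n = 6) in NoCre P278KY. The libraries of all groups overlapped. What differed between Cre and NoCre was the make-up of that sum. Paralogues 1 to 4 took 4.73 ± 0.881% in Cre WT (3.44% to 5.40%) and 4.50 ± 0.760% in Cre P278KY (3.91% to 5.36%). They took 13.1 ± 1.29% in NoCre WT (11.1% to 14.2%) and 12.5 ± 1.66% in NoCre P278KY (9.85% to 14.6%), and no Cre library reached a NoCre library. The ranges 1 to 4, 5 to 8 and 9 to 13 were chosen after the levels had been seen, and the shares carry no test.

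Paralogue number 7 took 14.9% to 20.0% in Cre WT against 12.01% to 15.3% in NoCre WT, which overlapped. Number 10 took 12.96% to 19.0% against 9.17% to 12.6%, which did not overlap. Number 8, the largest, overlapped between groups, with means of 23.3% in Cre WT and 22.9% in NoCre WT. By cluster, HoxB held 20.5% to 22.9% in Cre WT and 28.0% to 43.1% in NoCre WT, and HoxA 24.1% to 28.0% against 16.0% to 23.1%. In P278KY mice HoxB held 22.4% to 29.2% in Cre and 29.6% to 35.2% in NoCre libraries, while HoxA overlapped, with 22.8% to 26.2% against 16.8% to 24.5%. HoxC was the largest cluster in Cre WT, with a mean of 37.9%.

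**Figure D2:**
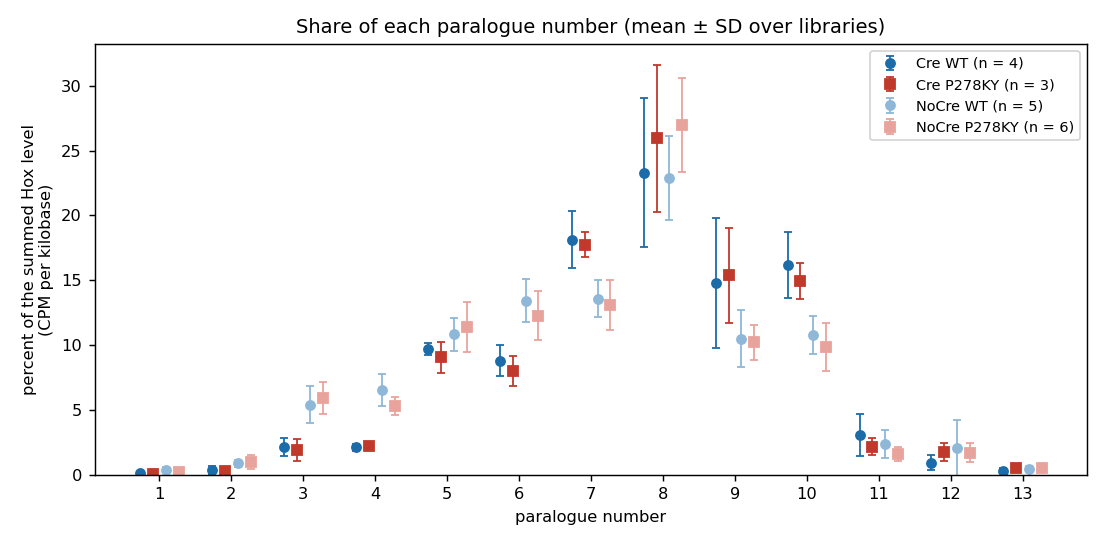
The x axis is the paralogue number and the y axis the percent of the summed Hox level per library in CPM per kilobase; points are group means and bars SD. The means of both Cre groups lie below those of both NoCre groups at numbers 1 to 6 and above them at 7, 9 and 10. Paralogues 1 to 4 took 4.73% in Cre WT against 13.1% in NoCre WT.

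The first comparison asked which Hox mRNAs tagged ribosomes of Chat-Cre cells brought down above background in WT mice. The low-numbered genes were lower in Cre than in NoCre libraries and Hoxd9 and Hoxa7 were higher. A gene is called here when its p from the quasi-likelihood test of edgeR, adjusted by Benjamini and Hochberg's method over all genes tested, is under 0.05. Of the 38 Hox genes 32 passed the filter on low counts, and 6 did not, Hoxb1, Hoxd12 and Hoxd13 among them. Of the 32, 2 were called higher and 13 lower, where 59.7% of all 17133 genes were called, 28.5% higher and 31.2% lower. The libraries of the groups did not overlap for 2 Hox genes that were higher and 9 that were lower, and this held for 43.1% of all genes, 22.5% higher and 20.7% lower. The median log2 fold change was -0.75 over the tested Hox genes and -0.12 over all genes. Scaled by library size alone, 3 were called higher and 6 lower, and the median of all genes moved to 0.20.

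Hoxd9, a gene of the lumbar and lower thoracic cord, had 26.0, 35.3, 15.4 and 15.6 CPM in Cre WT and 8.21, 7.80, 7.16, 8.37 and 10.7 in NoCre WT. Every Cre library was above every NoCre library. The log2 fold change was 1.45 with an SE of 0.326 and an adjusted p of 0.000689 in edgeR. Within the second sequencing pool alone it was 0.82, with an adjusted p of 0.249. Hoxa7 had 58.5, 45.2, 50.2 and 66.0 CPM in Cre WT and 30.7, 34.2, 33.2, 23.3 and 13.9 in NoCre WT, again with no overlap. Its log2 fold change was 1.02 (SE 0.241, edgeR adjusted p 0.00109).

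Among paralogues 1 to 4, 7 of the 8 tested genes were called lower and the eighth, Hoxb2, was not called (95% interval of the log2 fold change -2.45 to 0.46). Their median was -1.66. Hoxd3, whose relatives pattern neck and hindbrain, had 1.37, 2.39, 1.98 and 1.55 CPM in Cre WT and 8.64, 10.8, 5.67, 4.78 and 6.70 in NoCre WT. That is 4.04-fold lower (log2 -2.01, SE 0.337, edgeR adjusted p 3.26e-05), and no libraries overlapped. The Hoxd3 row also counts transcripts that GENCODE assigns to Hoxd4, which has no row of its own, so it stands for both genes.

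Hoxb4, which is expressed forward to the hindbrain, had 4.79, 5.11, 3.38 and 4.82 CPM in Cre WT and 13.01, 12.9, 15.6, 11.4 and 18.0 in NoCre WT. Its log2 fold change was -1.65 (SE 0.310). Hoxc4, a cervical gene, had 4.86 to 6.13 CPM in Cre WT and 11.0 to 30.5 in NoCre WT (log2 -1.66). Hoxa4 had 0.670 to 0.996 against 1.89 to 5.18 (log2 -2.01), and was not called within the first pool (edgeR adjusted p 0.0917). Hoxa3 had 3.57 to 4.78 against 7.31 to 15.9 (log2 -1.35), and was not called within the second (-1.10, edgeR adjusted p 0.0677). None of these genes overlapped between the groups.

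Genes 5 to 8 were mixed: 1 of 11 was called higher (Hoxa7) and 4 lower, with a median of -0.52. Hoxc5, a cervical and brachial gene, was called lower with 4.48 to 8.41 CPM in Cre WT and 9.42 to 28.6 in NoCre WT (log2 -1.53). Within the first pool its log2 fold change was -0.70 and not called (edgeR adjusted p 0.103). Hoxb6 was called lower as well (log2 -0.86), with 8.75 to 14.1 against 13.2 to 27.3 CPM, which overlapped. Without the NoCre WT replicates 4 and 5, which had 27.3 and 27.1, its log2 fold change was -0.48 with an edgeR adjusted p of 0.108, and within the first pool it was -0.14.

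Of paralogues 9 to 13, 1 of 13 was called higher (Hoxd9) and 2 lower, with a median of -0.12, as over all genes. Hoxb9, a thoracic gene at the 5′ side of the HoxB cluster, had 5.60, 5.77, 6.67 and 8.13 CPM in Cre WT and 15.1, 16.0, 14.6, 9.56 and 17.0 in NoCre WT. It was called lower (log2 -1.14, SE 0.240, edgeR adjusted p 0.000357). The call was lost within the second pool (-0.91, edgeR adjusted p 0.0977) and when scaled by library size alone (-0.84, 0.0799). The other gene of this range called lower was Hoxc11. Among the genes that specify lumbar motor neurons, Hoxc10 had a log2 fold change of 0.55 (edgeR adjusted p 0.0836) and Hoxd10 of 0.25, neither called.

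The windows before the start sites of Hoxd9 and Hoxa7, which were higher in Cre libraries, and of Hoxb4, which was lower, are shown because they represent both directions and lie in 3 clusters. They come from the RefSeq promoter table (build GRCm38.p6), which holds 21 of the 38 Hox genes, run 5′ to 3′ on the strand of the gene, and begin 250 bases before the start. Those of Hoxd9 and Hoxb4 end 51 bases before it. That of Hoxa7 ends 141 bases before it, where an exon of another Hoxa7 transcript lies. Capitals mark a match to 1 of 3 motifs.
Hoxd9, chr2:74697513-74697712, plus strand: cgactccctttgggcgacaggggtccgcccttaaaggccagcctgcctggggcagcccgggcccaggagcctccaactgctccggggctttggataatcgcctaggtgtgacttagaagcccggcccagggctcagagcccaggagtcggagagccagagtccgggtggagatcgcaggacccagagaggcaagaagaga
Hoxa7, chr6:52218714-52218823, minus strand: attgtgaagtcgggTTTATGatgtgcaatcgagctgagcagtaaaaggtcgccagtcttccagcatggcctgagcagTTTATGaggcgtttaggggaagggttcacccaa
Hoxb4, chr11:96318017-96318216, plus strand: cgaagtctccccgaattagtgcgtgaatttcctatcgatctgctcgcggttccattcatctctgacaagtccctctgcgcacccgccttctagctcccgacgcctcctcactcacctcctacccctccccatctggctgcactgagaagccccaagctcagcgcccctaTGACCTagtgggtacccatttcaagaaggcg

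The first motif was AGGTCA, the core site of retinoic acid receptors. It was searched, as the others were, on both strands from 250 to 51 bases before the start, after the sequences had been seen. It occurred before 5 of 21 Hox genes (Hoxb4, Hoxc4, Hoxd3, Hoxd8 and Hoxd10). By window this was 5 of the 23 Hox windows, against 11.4% of all 32851 windows of the table. In Hoxb4 it lies on the opposite strand, so the capitals show its complement.

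The second was TTTATG, the core site of the Cdx factors, which switch on Hox genes in the embryo. It occurred before 4 of the 21 genes (Hoxa7, Hoxb8, Hoxd3 and Hoxd11), in 4 of the 23 Hox windows against 8.78% of all windows. Hoxa7 holds 2 copies, 236 and 173 bases before the start.

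The third was TGATTNAT, bound by Hox proteins with Pbx. It occurred before Hoxa2 and Hoxd11, in 2 of the 23 Hox windows against 2.34% of all windows. Its matches can share bases with the first or second motif. The Hoxd9 window held no match to the 3 motifs.

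The same comparison in P278KY mice shared no library with the first, though 1 fit supplied the spread of both. Again 2 Hox genes were called higher and 10 lower of 32, where 59.4% of all genes were called, 28.2% higher and 31.2% lower. The groups did not overlap for Hoxd9 and Hoxa10 among the higher and for 8 of the lower genes, against 56.2% of all genes, 28.3% higher and 27.9% lower. The median log2 fold change of the tested Hox genes was -0.09, against -0.13 for all genes. All 12 genes called here were also called in WT mice and in the same direction, which is 80% of the 15 calls there. The share of all genes called in both genotypes was not counted, so this overlap is not read as particular to Hox genes. Hoxb7, Hoxb9 and Hoxc11 were called in WT mice alone.

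Hoxd9 had 16.2, 16.4 and 22.5 CPM in Cre P278KY and 1.57 to 8.21 in NoCre P278KY, with a median of 5.59. The groups did not overlap, and the log2 fold change was 1.73 (SE 0.329, edgeR adjusted p 0.000143). Hoxa7 had 51.2, 51.4 and 39.9 CPM in Cre P278KY and 25.8 to 49.2 in NoCre P278KY, median 28.4. They overlapped through NoCre P278KY replicate 6, and the log2 fold change was 0.60 (edgeR adjusted p 0.0425).

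Of paralogues 1 to 4, 7 of 8 were called lower, with a median of -1.51. Hoxd3, with Hoxd4 in its row, had 1.56, 1.88 and 0.960 CPM in Cre P278KY and 5.58 to 9.39 in NoCre P278KY, median 6.92 (log2 -2.31, SE 0.375). Hoxb4 had 3.22, 5.26 and 5.42 against 8.28 to 25.1, median 11.6 (log2 -1.53). Hoxa4 had 0.805, 0.204 and 0.549 against 0.872 to 3.36, median 2.18 (log2 -2.02). These 3 genes did not overlap between the groups.

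Hoxc4 (log2 -1.06), Hoxb3 (-1.49), Hoxa2 (-1.69) and Hoxa3 (-1.23) completed the genes called lower in this range. Hoxb3 and Hoxa2 rested on few reads, 75 each over the 3 Cre P278KY libraries. Of paralogues 5 to 8, Hoxc5 (log2 -1.66), Hoxb6 (-0.73) and Hoxb8 (-1.14) were called lower and Hoxa7 higher, and of 9 to 13 only Hoxd9 was called. Without NoCre P278KY replicate 6, 4 Hox genes were called higher and 8 lower. Without Cre P278KY replicate 2 the calls numbered 7 in all, and with the number in the mouse names as a block 6. Hoxb6 was called in 11 of 20 alternative settings and Hoxc4 in 16.

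The rise with paralogue number is a description of these fits. Across the 32 tested genes, Spearman's rho between paralogue number and log2 fold change was 0.47 in WT and 0.73 in P278KY mice. In WT mice the rise did not go on past number 10. The median there was 0.55 at number 10, -1.46 at 11, -1.07 at 12 and 0.12 at 13. For paralogues 9 to 13 together the median was -0.12 in WT and 0.26 in P278KY mice. Genes of 1 cluster share libraries and neighbours and are not independent.

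**Figure D3:**
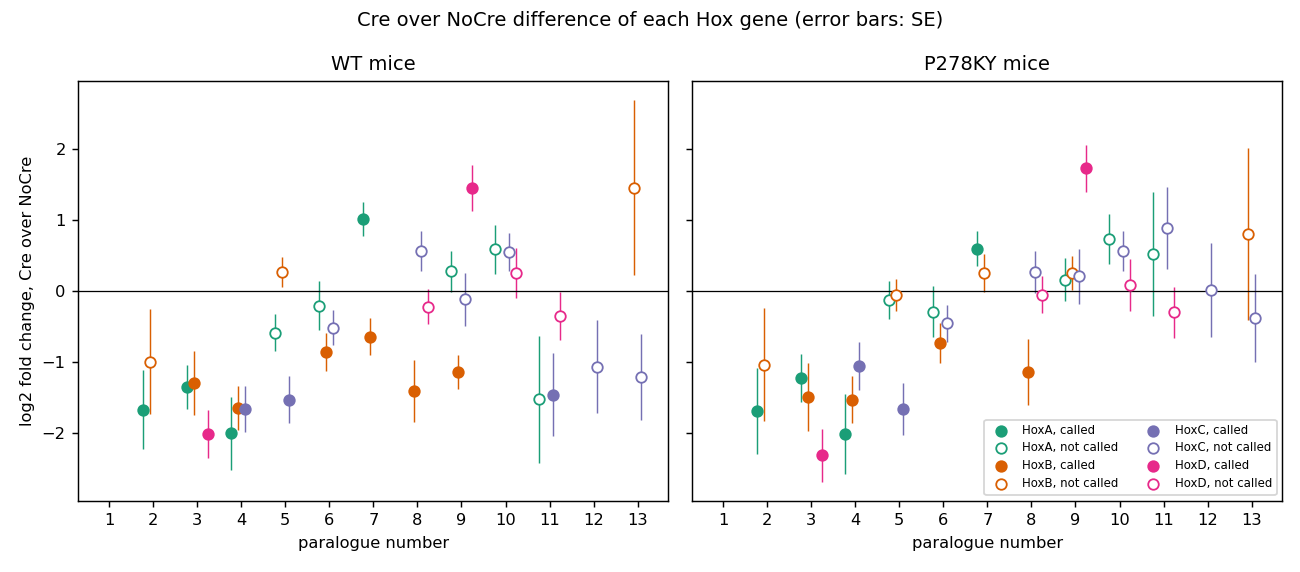
The x axis is the paralogue number and the y axis the log2 fold change of Cre over NoCre with its SE, in WT mice (left) and P278KY mice (right); colours are clusters and filled points are called. Paralogues 2 to 4 lie below 0 in both panels, and Hoxd9 is the highest called point, at 1.45 and 1.73.

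Partners and regulators of the Hox genes were read from the same fits. Of the 9 TALE homeodomain cofactors, which bind DNA with Hox proteins, 2 were called higher and 1 lower in Cre WT, where 59.7% of all genes were called. Their median was -0.46, against -0.12 for all genes. Pbx3 had 22.7, 17.0, 29.2 and 27.2 CPM in Cre WT and 8.97 to 18.3 in NoCre WT (log2 0.65, edgeR adjusted p 0.0304), and Pbx4 had a log2 fold change of 1.13 (edgeR adjusted p 0.0494). Neither call was firm: that of Pbx3 was lost in 12 and that of Pbx4 in 16 of 21 alternative settings. Pknox1, a cofactor also known as Prep1, had 1.48 to 7.86 CPM in Cre WT and 10.0 to 17.4 in NoCre WT (log2 -1.65).

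Of 26 upstream regulators and partners 23 were tested, and 3 were called higher and 9 lower in Cre WT, beside the 59.7% of all genes called there. Their median was -0.33, against -0.12 for all genes. Rara, a retinoic acid receptor, had 33.3, 17.9, 17.9 and 20.7 CPM in Cre WT and 8.03, 3.85, 7.46, 2.59 and 3.20 in NoCre WT (log2 2.13). Ezh2, the methyltransferase of the Polycomb complex that holds Hox genes silent, had 0.560 to 1.94 against 4.58 to 10.8 (log2 -2.47). Kmt2a, the methyltransferase that keeps Hox genes active, had 60.6 to 77.7 against 149 to 345 (log2 -1.71). Each of these 3 was also called in the same direction in P278KY mice. Cdx1 and Cdx2 had 0 reads in Cre WT.

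Of 18 noncoding RNAs of the clusters 9 had rows and 2 were tested. Both were called lower in both genotypes, where 31.2% of all genes were called lower. Hoxb3os had 0.685 to 1.71 CPM in Cre WT and 2.59 to 6.85 in NoCre WT (log2 -2.01), and Hotair, from the HoxC cluster, 0.187 to 0.818 against 0.913 to 3.14 (log2 -1.82). Evx2, a homeobox gene beside HoxD, was not called. Of 14 transcription factors of motor neuron columns 4 were called higher and 5 lower in Cre WT, near the 59.7% of all genes called. Mnx1, which marks somatic motor neurons, rose by log2 3.99 and Isl1 by 3.82, whereas Zeb2 fell by 2.29.

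The next comparison, between Cre P278KY and Cre WT, is the one named in the design of the series. Hoxb9 was the 1 Hox gene called and it was higher in Cre P278KY. Of all 14717 genes tested in the 7 Cre libraries 2.32% were called, 1.22% higher and 1.11% lower, so 1 of 32 is near the background. The median log2 fold change was 0.06 for the tested Hox genes and -0.01 for all genes.

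Hoxb9 had 15.7, 19.6 and 19.3 CPM in Cre P278KY and 5.60, 5.77, 6.67 and 8.13 in Cre WT, with no overlap. The log2 fold change was 1.49 (SE 0.234, 95% interval 1.03 to 1.94), 2.80-fold, with an adjusted p of 0.00985 in edgeR. Within the first pool, which holds all Cre P278KY libraries and 2 of Cre WT, it was 1.75 (edgeR adjusted p 0.00199). The call was lost without Cre P278KY replicate 2 (log2 1.43, edgeR adjusted p 0.0665) or replicate 3 (1.47, 0.0556) and when scaled by library size alone (1.50, 0.1).

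Its values in Cre P278KY lay within the range of the NoCre P278KY libraries. NoCre P278KY libraries had 10.6 to 19.9 CPM of Hoxb9, median 15.7, and the Cre over NoCre difference was 0.26 in P278KY mice (edgeR adjusted p 0.359), against -1.14 in WT mice. The difference between these values, the interaction, was 1.40 (SE 0.335) and missed the threshold (edgeR adjusted p 0.0521). It was called in 11 of 29 alternative settings, DESeq2 and limma voom among them. NoCre P278KY and NoCre WT libraries differed by 0.07 for Hoxb9 (95% interval -0.34 to 0.48).

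The neighbours of Hoxb9 in the cluster were not called between the Cre groups. Hoxb8, next to it, had 19.4, 13.9 and 30.2 CPM in Cre P278KY and 14.1, 12.1, 13.8 and 28.1 in Cre WT. Its log2 fold change was 0.30 (95% interval -0.41 to 1.02). For Hoxb7 the value was 0.34 (-0.20 to 0.88), for Hoxb6 -0.20 (-0.63 to 0.24) and for Hoxb5 -0.19 (-0.56 to 0.18).

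**Figure D4:**
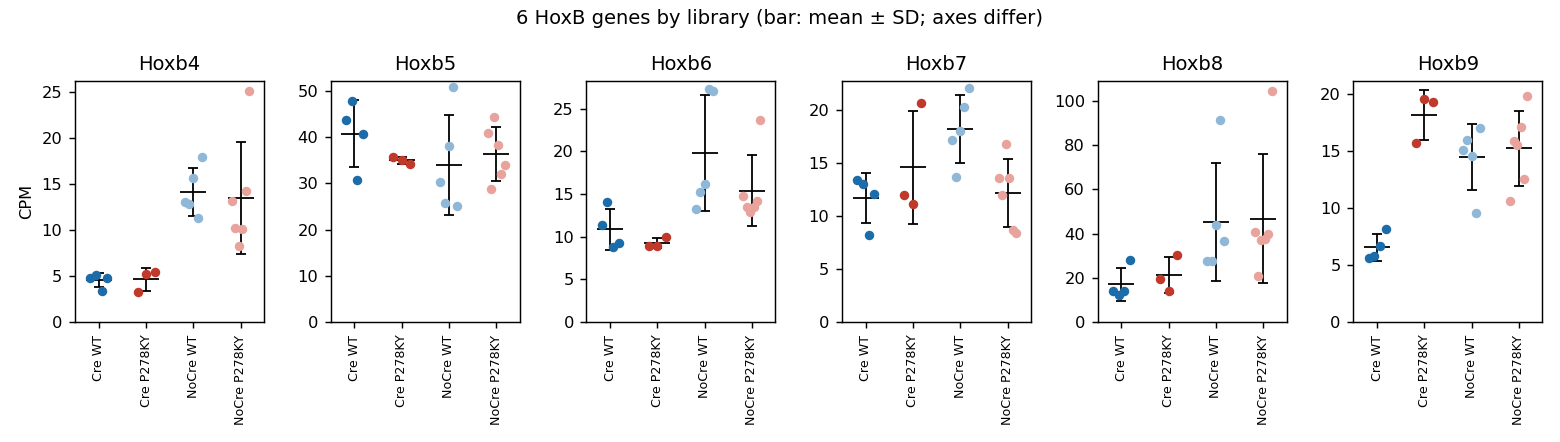
Each panel is 1 HoxB gene, with the 4 groups on the x axis and CPM from 0 on the y axis; points are libraries and bars mean ± SD, and the y axes differ. Hoxb9 is low in Cre WT alone (5.60 to 8.13), while Hoxb4 is low in both Cre groups and Hoxb8 has 1 high library in each NoCre group.

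Some markers of sensory neurons were higher in Cre P278KY, as Hoxb9 was. The 9 found of the 10 listed summed to 45.5 to 58.4 CPM in Cre P278KY and 8.08 to 29.0 in Cre WT, against 2.18 to 33.5 in NoCre WT and 0.866 to 26.9 in NoCre P278KY. P2rx3 (mean 26.0 CPM in Cre P278KY) and Avil (15.9) made up most of that sum and were the 2 of 4 tested markers called higher. Of all genes 1.22% were called higher and 1.11% lower in this comparison. Isl2 had a log2 fold change of -0.47 and was not called, and Prdm12, Scn10a and Mrgprd had 0 reads in all Cre P278KY libraries. Whether sensory neurons were present in these libraries was not tested, nor was any part of theirs in the Hoxb9 value. Markers of nerve root Schwann cells summed to 455 to 687 CPM in Cre P278KY against 692 to 2250 in Cre WT, and 2 of these 8 were called lower. Those of microglia summed to 31.5 to 52.1 against 29.4 to 44.4, and 0 of the 10 tested were called. Oligodendrocyte markers summed to 730 to 1830 CPM in Cre P278KY against 779 to 4344 in Cre WT, which overlapped. Their median log2 fold change was -1.53, with 0 called. Medians were also negative for markers of meninges and fibroblasts (-2.57), skeletal muscle (-2.55), vessels (-1.25) and astrocytes (-1.02), with 0 called. For microglia the median was -0.10, for inhibitory interneurons 0.19 and for excitatory ones -0.21. The part of these backgrounds was not tested either.

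Hoxa5 and Hoxa11 were the next Hox genes by adjusted p and neither was called. Hoxa5, a cervical and brachial gene, had 8.43, 9.55 and 7.96 CPM in Cre P278KY and 5.73, 3.96, 5.79 and 6.76 in Cre WT. The groups did not overlap for Hoxa5 and Hoxb9, against 16.6% of all genes, 8.2% higher and 8.45% lower. For Hoxa5 the log2 fold change was 0.65 (95% interval 0.11 to 1.18, edgeR adjusted p 0.285). Hoxa11 had at most 1.47 CPM in any Cre library (log2 1.59, edgeR adjusted p 0.409). For the most abundant Hox genes the intervals were -0.52 to 0.79 for Hoxc8 and -0.51 to 0.25 for Hoxc10.

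Among the 23 tested regulators and partners 3 were called higher in Cre P278KY and 0 lower, and of the 9 TALE cofactors 0 were called. Of all genes 2.32% were called in this comparison, 1.22% higher and 1.11% lower. The 2 regulators and partners described here were chosen after their values had been seen. Foxp1, the cofactor that lets Hox proteins specify limb-innervating motor neurons, had 39.8, 38.1 and 27.6 CPM in Cre P278KY and 18.7, 14.6, 18.7 and 19.8 in Cre WT (log2 0.99, SE 0.220, edgeR adjusted p 0.0486). Cyp26b1, which breaks down retinoic acid, had 14.6, 17.0 and 16.1 against 6.66, 6.84, 6.06 and 9.08 (log2 1.17, edgeR adjusted p 0.0303).

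No library of Cre P278KY overlapped Cre WT for these 2 genes. Foxp1 was lower in Cre WT than in NoCre WT (log2 -0.63, edgeR adjusted p 0.0118), and in P278KY mice its Cre over NoCre difference was 0.13 (edgeR adjusted p 0.618). Cyp26b1 was higher in Cre than in NoCre libraries of both genotypes. The interaction was 0.75 for Foxp1 (edgeR adjusted p 0.303) and 0.12 for Cyp26b1 (0.963), neither called. It compares ratios and recovered 2.08% of simulated 2-fold changes, so it cannot decide whether these differences exceed those of the background. For Cyp26b1 every Cre library was above every NoCre library. For Foxp1 the Cre P278KY libraries lay within the range of NoCre P278KY. The part of the background in either difference was not tested. Of 18 alternative settings the call was lost in 10 for Foxp1 and 8 for Cyp26b1, including each omission of 1 Cre P278KY library.

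**Figure D5:**
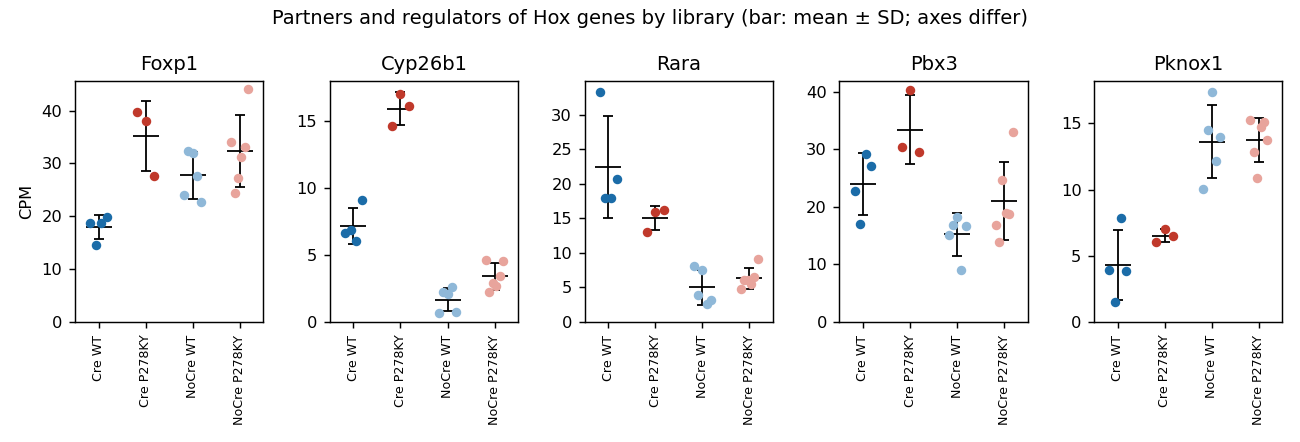
Each panel is 1 partner or regulator, with the 4 groups on the x axis and CPM from 0 on the y axis; points are libraries and bars mean ± SD, and the y axes differ. Foxp1 in Cre P278KY lies between 27.6 and 39.8, above the 4 Cre WT libraries and within the NoCre range, while Cyp26b1 is highest in Cre P278KY.

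Between NoCre P278KY and NoCre WT, the control for genotype in background RNA, 0 of 32 Hox genes were called by edgeR, DESeq2 or limma voom, and 3 had an unadjusted p under 0.05 in edgeR. Of all genes 0.0233% were called, all lower. No Hox gene had groups that did not overlap, which held for 0.718% of all genes, 0.339% higher and 0.379% lower. Without NoCre P278KY replicate 6 the Hox count was again 0. Those 3 were Hoxc11, Hoxb7 and Hoxd11, all lower in NoCre P278KY. Hoxc11, a lumbosacral gene, had 0.587 to 1.57 CPM, median 0.897, in NoCre P278KY and 2.36, 3.75, 0.795, 3.39 and 3.04 in NoCre WT (log2 -1.47, edgeR adjusted p 0.687). Hoxb7 had a log2 fold change of -0.57 and Hoxd11 of -0.68. In the interaction, where 0.654% of all genes were called (0.344% higher, 0.309% lower), the edgeR test called 0 of 32 Hox genes and DESeq2 and limma voom 1 each. Without NoCre P278KY replicate 6 edgeR called 1, Hoxb9 (log2 1.52, adjusted p 0.0216). The edgeR test gave 3 of them an unadjusted p under 0.05: Hoxb9, Hoxc11 (2.35, adjusted p 0.227) and Hoxb7 (0.89, adjusted p 0.354).

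Several rows are uncertain as single genes. Of the 38 Hox genes, 14 overlap another gene on the same strand and 13 one on the opposite strand, and the sources used here do not give the strand setting of the counting. Hoxc5 spans other HoxC genes, and the Hoxa3 and Hoxd11 rows include a transcript of a neighbouring predicted gene.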

How the data were processed

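Ribosome-associated mRNA was sequenced from 18 spinal cords. Per the file headers, the authors deposited for each library the expected counts, effective lengths and TPM of RSEM, and the submitters' processing notes name Bowtie2 2.2.0 and RSEM 1.2.12. The sources used here do not name the genome build or annotation. Deposited expected counts were rounded to whole numbers. The authors' deposited TPM served only as an alternative for levels. Lengths are the authors' effective lengths. Positions are those of GENCODE M21 (GRCm38).

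The groups follow the genotype labels, and replicate numbers only name mice. Labels do not say more of how mice relate, so p-values measure the spread between these samples. Pools 1 and 2 were read from index sequences that recur in the library descriptions. Counts were scaled with TMM, and 5 comparisons were tested two-sided in edgeR 4.0.16 (quasi-likelihood, filterByExpr, robust; R 4.3.3), adjusted over all genes tested. The Cre genotype comparison used the 7 Cre libraries and the others all 18, with CPM from the latter. The procedure was tested on simulated data. It recovered 17.5% of 2-fold and 62.6% of 4-fold changes in the WT enrichment, and 17.2% and 58.8% in P278KY mice. Between the Cre groups these values were 11.3% and 68.0%, and between the NoCre groups 33.3% and 72.45%. In the interaction they were 2.08% and 33.7%. A gene that was not called can therefore still differ. In the simulated WT enrichment 80 of 16846 genes were called, against 59.7% of genes in the data. The adjusted threshold was therefore stricter there than in the data. The simulated rates do not measure what share of changes the 2 enrichments missed. DESeq2 1.42.0 and limma 3.58.1 (voom) were alternatives, beside other scalings, filters, pools and omitted libraries. A 95% interval takes the normal quantile of the SE.

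Named were all called Hox genes up to 10 per comparison, those with the smallest adjusted p where more were called, and the first 3 where fewer than 3 were called. Of each partner list, up to 4 members were eligible. Other Hox genes given with values were chosen after these had been seen. The members and lists were chosen with earlier results of these data known. Some members are not reported here.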

Additional observations from a re-analysis of the deposited data

Results flagged for a closer look

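In 96 sets of 1 Hox gene in 1 group of 4 to 6 libraries, Dixon's rule at the 95% level marked 10 values as far from the others, and chance marks about 1 in 20. Of these, 8 belonged to NoCre P278KY replicate 6, the highest of its group each time. It had 104 CPM of Hoxb8 (others 20.9 to 40.6), 118 of Hoxc8 (48.7 to 58.3), 49.2 of Hoxa7 (25.8 to 30.4), 25.1 of Hoxb4 (8.28 to 14.2) and 25.3 of Hoxc4 (9.55 to 12.04). It also had 23.7 of Hoxb6 (12.9 to 14.7), 23.4 of Hoxc5 (9.72 to 13.3) and 2.27 of Hoxb13 (0 to 0.298). The other 2 were again of Hoxb8, with 28.1 CPM in Cre WT replicate 4 (others 12.1 to 14.1) and 91.4 in NoCre WT replicate 4 (27.4 to 43.6). All these values are CPM after TMM scaling. In unscaled counts, 3542 of 9876808 fell on Hox genes in NoCre P278KY replicate 6, and 2478 of 11480402 in NoCre WT replicate 4. These were the smallest Hox shares in their groups. The part of the scaling in the flagged values was not tested.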

How the results depend on the processing

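No Hox gene or partner named by rule turned its direction under the settings run. The 15 calls of the WT enrichment became 9 when scaled by library size alone and 7 within pool 2, and ranged from 13 to 17 with 1 library left out. The 12 calls in P278KY mice became 6 with the mouse-number replicate block and ranged from 7 to 12 with 1 library left out. The block changed no other count of calls by over 1.5 times (14 in WT mice, 1 between the Cre groups, 0 in the interaction). The meaning of these numbers is not given, and libraries of different groups that share one deviated from their group means with correlations of -0.14 to 0.23 (12 pairs), so they were not treated as pairs. The 1 call between the Cre groups became 0 when scaled by library size alone and was 0 to 1 with 1 library left out. The 0 calls of the interaction became 1 (Hoxb9) with RLE size factors, without mitochondrially encoded genes, with DESeq2, with voom, with mean CPM of at least 1, within pool 1, without both NoCre WT replicates 4 and 5 and with pool as a covariate, and were 0 to 1 with 1 library left out. Without Hoxc8, paralogues 1 to 4 took 5.39% in Cre P278KY, 14.6% in NoCre WT and 14.3% in NoCre P278KY. The share of the other genes rises whenever Hoxc8 leaves the sum, so this shift follows from the arithmetic. Causes of the other changes were not tested. No Cre P278KY library is in pool 2, so that enrichment has no value there. Low genes had wide intervals: Hoxa11, with 0, 2, 14 and 16 reads in the Cre WT libraries, had a 95% interval of -0.09 to 3.28 (log2) between the Cre groups.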
